A study of Mus musculus with 6 samples.

Results

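The centromere, kinetochore and spindle checkpoint genes are 41 genes whose products mark the centromere, build the kinetochore on it and hold back anaphase until every chromosome is attached. They were taken by symbol from a table of 55401 gene entries, and all 41 were found, each with a mean of at least 107 normalized estimated counts, so that 41 of 41 passed the filter on low values. CD4+ helper T cells from the spleen of naive wild-type C57BL/6 mice were loaded with the proliferation dye CFSE. They were cultured in RPMI medium for 48 h with 5 mM itaconate (ITA, 3 libraries) or with 5 mM NaCl as the control (3 libraries). Both groups also received antibodies against CD3 and CD28, which stimulate the T cell receptor and its co-receptor, and 200 U of IL-2. Itaconate is a dicarboxylate that activated macrophages make from a TCA cycle intermediate. Whether the 3 libraries of a group stem from different mice or cultures is not stated in the labels. A p-value therefore measures the spread among these libraries alone, and that spread may be technical. The table codes its control columns as NAC, taken to be the NaCl samples since these are the only controls the labels name.

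The kinetochore is assembled in layers. Nucleosomes with CENP-A, a variant of histone H3, mark the centromere, and an inner kinetochore of CENP proteins sits on them throughout the cell cycle. In mitosis an outer kinetochore, made of the Mis12 and Ndc80 complexes with KNL1 and helped by the Ska complex, binds the ends of spindle microtubules. A fibrous corona with the motor CENP-E forms around kinetochores that are not yet attached, and the checkpoint proteins recruited there produce an inhibitor of the anaphase-promoting complex. T cells that have not been stimulated are largely quiescent, and stimulation through CD3 and CD28 brings them into the cell cycle. There the mRNAs of many of these genes are highest in G2 and mitosis.

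The libraries held 20074299 to 24144999 estimated reads. Of 8 T cell markers (Cd3d, Cd3e, Cd3g, Cd4, Cd5, Thy1, Lck and Cd28), 4 rose and 2 fell, and their summed level was 69084 to 71874 with itaconate and 60737 to 66603 with NaCl. B cell markers summed to 199 to 314 with itaconate and 239 to 312 with NaCl, and CD8 T cell markers to 308 to 365 with itaconate and 363 to 408 with NaCl, with none of either list passing the test. NK cell markers summed to 215 to 249 with itaconate and 109 to 158 with NaCl, while Ncr1 and Klrb1c never exceeded 10. Of the other two NK genes, Eomes, which activated T cells can also express, rose. Klrd1 had 14, 12.9 and 8.21 with itaconate and 28.6, 14.1 and 14.5 with NaCl, narrowly lower in every itaconate library, and did not pass (log2 fold change −0.62, 95% interval −1.81 to 0.58, adjusted p = 0.412). The 7 myeloid markers summed to 172 to 212 with itaconate and 69.3 to 119 with NaCl, and Itgam and Cd68 rose among them, while Lyz2, Cd14, Csf1r and Adgre1 never exceeded 10 in any library. The 6 erythroid markers summed to at most 3.74, and 3 of them were at 0 in every library. The part of these markers in the results below was not tested.

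With itaconate, 24 of the 41 mRNAs rose, 1 fell and 16 did not pass the test, which was limma on log2(value + 1) with a Benjamini-Hochberg adjusted p under 0.05 over all 13170 tested genes. Among all tested genes 18.2% rose and 17.8% fell, 36.0% in either direction. The median log2 fold change of itaconate over NaCl was 0.43 for the 41 genes and −0.00095 for all tested genes. By layer, the median was 0.85 for the corona, 0.62 for the checkpoint, 0.46 for the outer kinetochore, 0.43 for the CENP-A nucleosome and 0.29 for the inner kinetochore. All 5 corona genes rose, as did 4 of 6 checkpoint genes, 7 of 11 outer kinetochore genes, 2 of 3 CENP-A nucleosome genes and 6 of 15 inner kinetochore genes. The gene that fell was Cenpb. Values in the 3 itaconate libraries lay wholly above those in the 3 NaCl libraries for 25 members and wholly below for 3, where 24.2% of all tested genes lay wholly above and 24.2% wholly below. In RNA from whole cultures, a difference in the number of cells in a phase of the cycle and a difference in RNA per cell cannot be told apart.

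**Figure D1:**
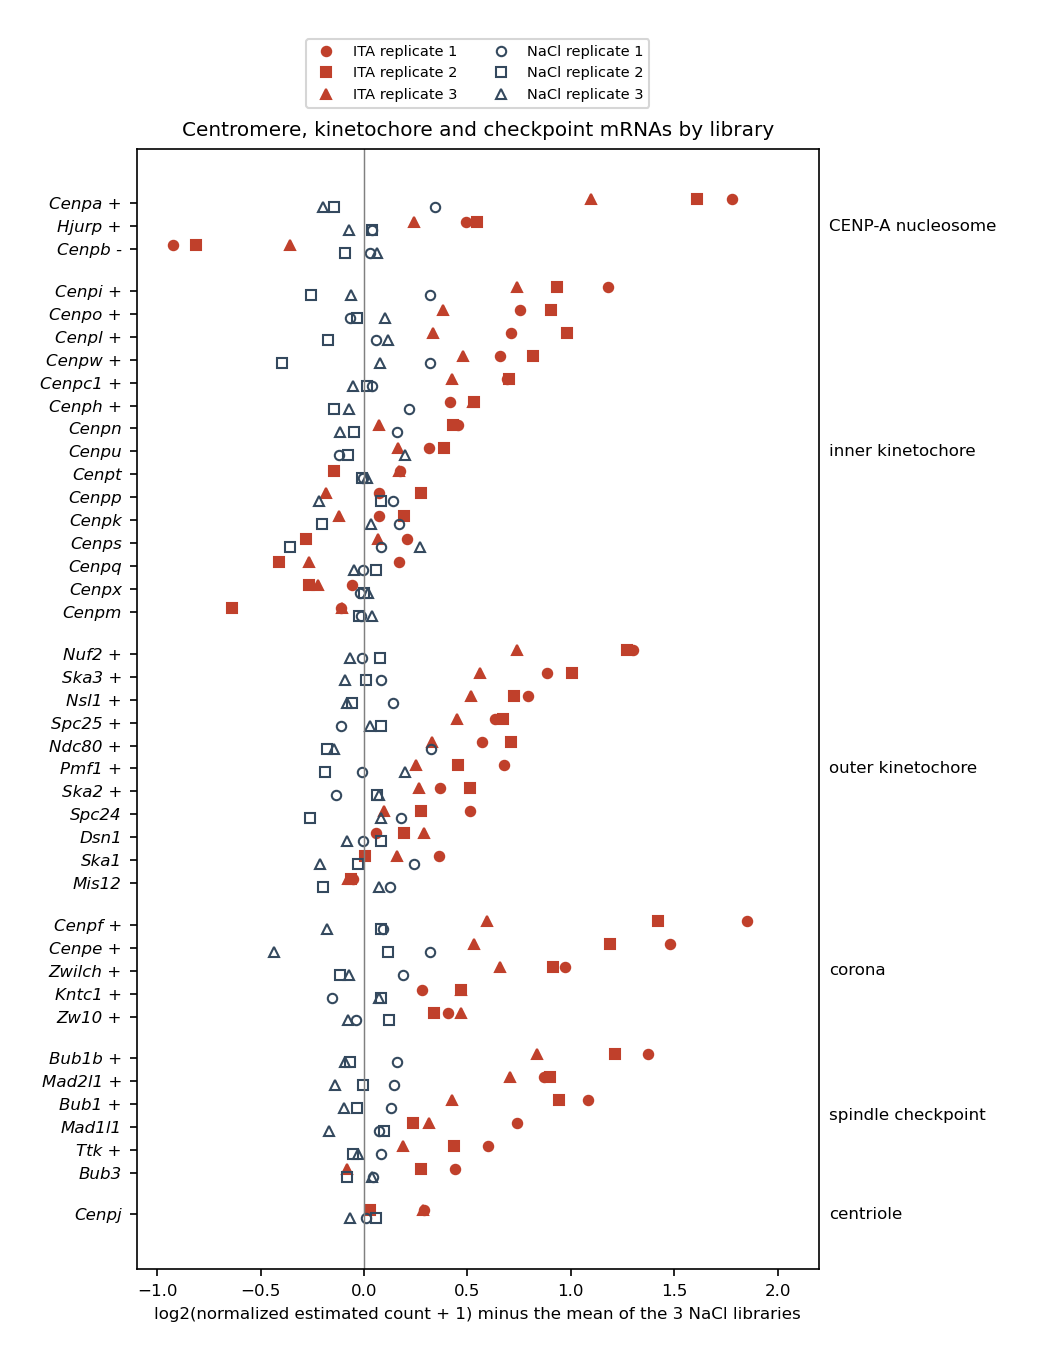
Level of each of the 41 mRNAs in each library, as log2(normalized estimated count + 1) minus the mean of the 3 NaCl libraries, with itaconate (filled) above NaCl (open) in each row and genes grouped by layer. A plus or minus after a symbol marks the 24 genes that rose and the 1 that fell. The itaconate points spread farthest to the right for Cenpa and Cenpf. For Cenpb, Cenpm, Cenpx and Mis12 they all lie left of the NaCl mean, farthest for Cenpb.

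Promoters of these genes are shown as a description. Many genes expressed in G2 and mitosis are known to use the cell cycle genes homology region (CHR, TTTGAA or TTCGAA), bound by the MuvB core of the DREAM complex. It is often found with an upstream CCAAT box, bound by NF-Y. Whether either motif has a part in the differences with itaconate was not tested. RefSeq promoters on GRCm38.p6, from 250 bases before to 50 after the start, were at hand for 37 of the 41 genes. Nsl1, Spc24, Ska1 and Zwilch have no entry. Windows from 100 bases before to 30 after the start are printed 5′ to 3′ on the gene's strand, with exact matches to either motif, on either strand, in capitals.
Cenpa (chr5:30666786-30666915, plus strand): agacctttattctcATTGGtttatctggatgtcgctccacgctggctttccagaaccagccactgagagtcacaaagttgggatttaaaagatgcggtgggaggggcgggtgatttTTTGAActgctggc
Cenpf (chr1:189688057-189688186, minus strand): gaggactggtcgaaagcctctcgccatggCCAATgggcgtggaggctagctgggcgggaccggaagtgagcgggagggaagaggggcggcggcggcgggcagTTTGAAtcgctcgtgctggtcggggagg
Bub1 (chr2:127831830-127831959, minus strand): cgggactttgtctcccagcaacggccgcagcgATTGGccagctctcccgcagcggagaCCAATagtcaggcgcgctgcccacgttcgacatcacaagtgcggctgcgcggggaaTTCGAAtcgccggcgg
Spc25 (chr2:69206184-69206313, minus strand): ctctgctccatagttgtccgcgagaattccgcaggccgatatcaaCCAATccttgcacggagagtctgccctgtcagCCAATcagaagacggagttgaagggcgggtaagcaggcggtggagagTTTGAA
Ska3 (chr14:57826134-57826263, minus strand): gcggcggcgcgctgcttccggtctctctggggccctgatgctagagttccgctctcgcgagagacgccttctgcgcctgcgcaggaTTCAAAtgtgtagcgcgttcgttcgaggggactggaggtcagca
Nuf2 (chr1:169531435-169531564, minus strand): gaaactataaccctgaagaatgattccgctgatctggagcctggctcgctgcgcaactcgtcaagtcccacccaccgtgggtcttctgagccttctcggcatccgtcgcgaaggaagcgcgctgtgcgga
Mad2l1 (chr6:66535121-66535250, plus strand): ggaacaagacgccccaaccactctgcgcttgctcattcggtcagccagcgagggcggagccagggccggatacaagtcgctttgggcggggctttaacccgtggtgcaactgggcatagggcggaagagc
Cenpb (chr2:131180038-131180167, minus strand): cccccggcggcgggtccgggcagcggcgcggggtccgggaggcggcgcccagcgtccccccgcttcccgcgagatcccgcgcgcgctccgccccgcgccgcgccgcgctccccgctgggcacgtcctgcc
The first 5 hold a CHR match near the start, at +17 in Cenpa, +3 in Cenpf, +15 in Bub1, +25 in Spc25 and −14 in Ska3, where +1 is the start and the number is the leftmost base of the match. Nuf2 and Mad2l1, which rose, and Cenpb, which fell, hold neither motif in these windows. The Mad2l1 window ends before the start of the gene in the GENCODE annotation (66535390), so bases next to that start are not printed.

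Over the whole 300-base promoters, a CHR match was present in 14 of the 22 genes that rose and had an entry (63.6%) and in 3 of the 15 others (20%). Of the genes whose fold change was at or above the median of those that rose, 5 of 10 with an entry held one (50%). All tested genes with an entry held one in 16.6% of cases (9758 genes), and all 27025 genes with an entry, tested or not, in 21.7%. A match starting within 30 bases of the start was found in 10 of 22 genes that rose (45.5%), in 1 of the 15 others (6.67%), in 2.91% of tested genes and in 3.95% of all genes. The CCAAT box was common everywhere, in 72.7% of the genes that rose, 53.3% of the others, 43.4% of tested genes and 41.1% of all genes. TTCGAA reads the same on both strands, and the 2 motifs can share 1 base, as in Kntc1 and Cenpw. The promoters of Mad2l1, Cenpo and Pmf1, which rose, do not hold the start of the gene in the GENCODE annotation. Neither do those of Cenpj, Cenpt, Cenpq and Cenpm, which did not pass, so matches near that start may be missed. Members were sorted by the calls of these same data, so the shares are a description and no test of a link. A match describes the letters of the window and is no measure of binding.

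**Figure D2:**
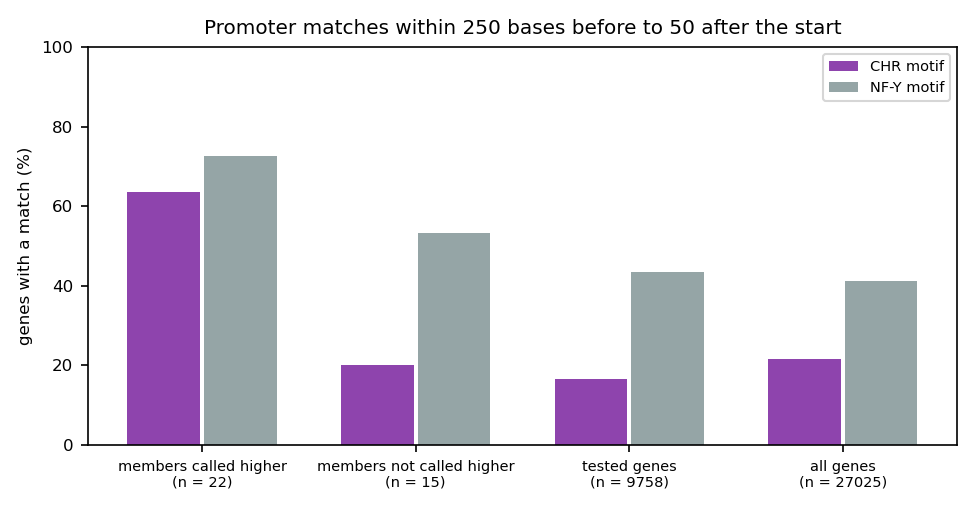
Percent of genes with at least 1 exact match, on either strand, to the CHR motif or to the CCAAT box bound by NF-Y in 300-base promoters, for the members that rose, the other members, all tested genes and all genes with an entry. CHR matches reach 63.6% in the members that rose and 20% in the other members, next to 16.6% of tested genes. Some promoters do not hold the GENCODE start of the gene, and a link between a match and a rise was not tested.

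Of the 3 genes grouped with the CENP-A nucleosome, Cenpa and Hjurp rose and Cenpb fell. Cenpa (chr5:30666777-30674830, GRCm38), which encodes the centromeric histone itself, had normalized estimated counts of 5625, 5012 and 3513 in the itaconate libraries, against 2079, 1483 and 1429 in the NaCl libraries. Every itaconate library was above every NaCl library, and the difference was the largest of the 41 genes (log2 fold change 1.496 ± 0.17 SE, adjusted p = 4.00e-05; 2.82-fold on the scale of the fit). Hjurp (chr1:88262471-88277633), the chaperone that deposits new CENP-A, had 8659, 8977 and 7263 in the itaconate libraries, against 6306, 6315 and 5838 in the NaCl libraries. The groups did not overlap (log2 fold change 0.43 ± 0.094 SE, adjusted p = 0.00361). Cenpb (chr2:131175182-131180067) encodes a protein that binds a motif in the satellite repeats of the centromere. Its counts were 589, 637 and 871 in the itaconate libraries, against 1141, 1048 and 1170 in the NaCl libraries, with the groups apart (log2 fold change −0.698 ± 0.14 SE, adjusted p = 0.00216). Replicate 3 had the highest Cenpb and the lowest Cenpa of the itaconate libraries. Spef1, on the same strand, shares a stretch of 20 exonic bases with Cenpb and had a mean of 53.8, against 909 for Cenpb.

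The inner kinetochore was mixed, with 6 of 15 genes higher, 9 that did not pass, and 0 lower in limma at either the adjusted or an unadjusted p under 0.05. The 3 with the smallest p were Cenpc1, Cenpi and Cenpo. Cenpc1 (chr5:86012024-86065583) encodes CENP-C, which ties the CENP-A nucleosome to the outer kinetochore, and had counts of 1259, 1269.7 and 1048 in the itaconate libraries, against 802, 788 and 752 in the NaCl libraries (log2 fold change 0.61 ± 0.11 SE, adjusted p = 0.00106). Cenpi (chrX:134308084-134362639), of the subcomplex of CENP-H, -I, -K and -M, had 638, 537 and 470.1 in the itaconate libraries, against 351, 235 and 269.6 in the NaCl libraries and the largest fold change of the layer (log2 fold change 0.95 ± 0.17 SE, adjusted p = 0.0011). Cenpo (chr12:4196004-4234294), of the subcomplex of CENP-O, -P, -Q and -U, had 769, 855 and 595 in the itaconate libraries, against 435, 445 and 489 in the NaCl libraries (log2 fold change 0.68 ± 0.14 SE, adjusted p = 0.00286). For these 3 genes the groups did not overlap. Cenpl rose by 0.68 ± 0.16, Cenpw by 0.65 ± 0.18 and Cenph by 0.49 ± 0.15 (log2 fold change ± SE; adjusted p = 0.00546, 0.015 and 0.021 in limma). Without itaconate replicate 2 neither Cenpw nor Cenph passed (adjusted p = 0.0727 and 0.0721), nor without NaCl replicate 2 (0.0675 and 0.082). Cenph also did not pass without NaCl replicate 3 (0.0699), and Cenpw without the intensity trend (0.0643).

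Partners of one subcomplex did not all share a call. In the subcomplex of CENP-H, -I, -K and -M, Cenpk had 327, 356 and 286 with itaconate and 350.2, 270.3 and 318 with NaCl (log2 fold change 0.05, 95% interval −0.29 to 0.39, adjusted p = 0.839), with overlapping groups. Cenpm had 299, 207 and 299.7 with itaconate and 319, 317 and 332 with NaCl, lower in every itaconate library but with replicate 2 far below the other two, and did not pass (log2 fold change −0.28, 95% interval −0.66 to 0.09, adjusted p = 0.217). Cenpn, whose product binds the CENP-A nucleosome together with CENP-L, had 657, 647 and 504 with itaconate and 536, 464 and 443 with NaCl (log2 fold change 0.32, 95% interval 0.01 to 0.62, adjusted p = 0.096), with overlapping groups. It passed in 2 of 16 alternatives, one of them without itaconate replicate 3, the lowest of its group (adjusted p = 0.0223, within 0.0223 to 0.27 over the alternatives).

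In the subcomplex of CENP-O, -P, -Q and -U, only Cenpo passed. Cenpp had 189.8, 219 and 158 with itaconate and 199, 190.5 and 155 with NaCl (log2 fold change 0.06, 95% interval −0.36 to 0.47, adjusted p = 0.848), with overlapping groups. Cenpq had 513, 344 and 379.8 with itaconate and 455, 475 and 441 with NaCl (log2 fold change −0.17, 95% interval −0.51 to 0.17, adjusted p = 0.43), and the itaconate libraries reached both above and below the controls. Cenpu had 228, 241 and 206 with itaconate and 169, 174 and 211 with NaCl (log2 fold change 0.29, 95% interval −0.09 to 0.66, adjusted p = 0.217), with 1 control library inside the itaconate range. These intervals include a rise or a fall of moderate size, so the 3 genes are not shown to be without change.

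The histone-fold proteins CENP-T, -W, -S and -X form a further subcomplex, of which only Cenpw passed. Cenpt had 655, 524 and 654 with itaconate and 578, 577 and 587 with NaCl, the itaconate libraries lying on both sides of the controls (log2 fold change 0.07, 95% interval −0.21 to 0.34, adjusted p = 0.719). Cenps, the member with the smallest fold change, had 123, 87 and 111 with itaconate and 112, 82.4 and 128 with NaCl, with overlapping groups (log2 fold change −0.001, 95% interval −0.53 to 0.53, adjusted p = 0.999). Cenpx had 433, 375 and 387 with itaconate and 446, 451 and 457 with NaCl, lower in every itaconate library by a small margin (log2 fold change −0.18, 95% interval −0.46 to 0.09, adjusted p = 0.289). CENP-S and CENP-X also act outside the kinetochore, in Fanconi anaemia repair. Exons of Cenpo, Cenpu, Cenpk, Cenpp and Cenpq share stretches of 921, 912, 233, 315 and 95 bases with genes on the opposite strand (Adcy3, Primpol, Ppwd1, Ippk and Mut). The strand setting of the counting is not given in the sources used here, so the counts of these 5 genes are less certain.

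In the outer kinetochore 7 of 11 genes rose and 0 fell, at either the adjusted or an unadjusted p under 0.05 in limma. Nuf2 (chr1:169497934-169531464), a subunit of the Ndc80 complex that grips the microtubule, had 1825, 1787 and 1237 in the itaconate libraries, against 735, 782 and 707 in the NaCl libraries (log2 fold change 1.103 ± 0.14 SE, adjusted p = 8.98e-05). Ska3 (chr14:57806561-57826185), of the Ska complex that keeps kinetochores on moving microtubule ends, had 799.7, 871 and 639 in the itaconate libraries, against 458, 436 and 407 in the NaCl libraries (log2 fold change 0.82 ± 0.14 SE, adjusted p = 6.05e-04). Nsl1 (chr1:191063012-191086474), a subunit of the Mis12 complex, had 1115, 1062 and 919.6 in the itaconate libraries, against 708, 617 and 606 in the NaCl libraries (log2 fold change 0.68 ± 0.12 SE, adjusted p = 7.84e-04). In all 3 genes the lowest itaconate library, replicate 3, was still above the highest control. Spc25 rose by 0.59 ± 0.13, Ndc80 by 0.54 ± 0.14, Pmf1 by 0.46 ± 0.14 and Ska2 by 0.38 ± 0.11 on the log2 scale (adjusted p = 0.00316, 0.0107, 0.0225 and 0.0186 in limma). Of these, Ndc80, Pmf1 and Ska2 did not pass without itaconate replicate 2 (adjusted p = 0.0618, 0.0661 and 0.094) or without the intensity trend of the variance (0.0738, 0.078 and 0.0517), which left 4 of the 11 genes called in each case. Without NaCl replicate 2, Ndc80 and Pmf1 did not pass (0.059 and 0.1003). Ndc80 also did not pass without NaCl replicate 3 (0.0519), Pmf1 without itaconate replicate 1 (0.0911), and Pmf1 and Ska2 without NaCl replicate 1 (0.0536 and 0.0722).

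The other 4 outer kinetochore genes did not pass. Spc24, the partner of SPC25, had 905, 770.2 and 680.5 with itaconate and 719, 529 and 674 with NaCl, with itaconate replicate 3 among the controls (log2 fold change 0.296, 95% interval −0.02 to 0.61, adjusted p = 0.132). Dsn1 had 681, 748 and 799.5 with itaconate and 652, 692 and 617 with NaCl (log2 fold change 0.18, 95% interval −0.07 to 0.43, adjusted p = 0.236), and it was 1 of 4 genes in which replicate 3 was the highest itaconate library. Mis12, which names its complex, had 839.9, 834 and 824 with itaconate and 949, 758 and 917 with NaCl, with the itaconate libraries close together inside the range of the controls (log2 fold change −0.06, 95% interval −0.31 to 0.18, adjusted p = 0.697). Ska1 had 452, 352 and 392 with itaconate and 415, 344 and 303 with NaCl, with overlapping groups (log2 fold change 0.18, 95% interval −0.17 to 0.52, adjusted p = 0.416). Exons of Mis12 share a stretch of 231 bases with Derl2, and those of Ska3 one of 78 bases with Sap18, both on the opposite strand. Derl2 had a mean of 1091, against 854 for Mis12, and Sap18 one of 739, against 602 for Ska3. With the strand setting unknown, the counts of Mis12 and Ska3 are less certain.

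All 5 corona genes rose, and the group held some of the largest and some of the smallest rises. Cenpf (chr1:189640606-189688086) encodes a large coiled-coil protein that accumulates in G2 and coats the kinetochore in mitosis. Its counts were 2694, 1997 and 1125 in the itaconate libraries, against 794, 789.6 and 659 in the NaCl libraries (log2 fold change 1.29 ± 0.23 SE, adjusted p = 0.00103). Cenpe (chr3:135212537-135273611), the kinesin that carries chromosomes to the spindle equator, had 3736, 3061 and 1939.8 in the itaconate libraries, against 1674, 1452 and 991 in the NaCl libraries (log2 fold change 1.07 ± 0.22 SE, adjusted p = 0.0024). Within the itaconate group replicates 1 and 3 lay 1.26 log2 units apart for Cenpf and 0.95 for Cenpe, yet no itaconate library fell among the controls. Zwilch (chr9:64137144-64173104), of the RZZ complex (ROD, Zwilch and ZW10) that brings dynein and checkpoint proteins to the kinetochore, had 1189, 1139.7 and 956 in the itaconate libraries, against 690.4, 559 and 575 in the NaCl libraries (log2 fold change 0.85 ± 0.13 SE, adjusted p = 2.70e-04). Lctl, on the opposite strand, shares 254 exonic bases with Zwilch and had a mean of 0.325. The partners of Zwilch had smaller fold changes. Kntc1, which encodes ROD, had 2287, 2608 and 2607 with itaconate and 1689.8, 1990 and 1979 with NaCl (log2 fold change 0.41 ± 0.099 SE, adjusted p = 0.00662), and Zw10, which also serves membrane traffic in interphase, had 1002, 957 and 1047 with itaconate and 735, 822 and 716 with NaCl (log2 fold change 0.404 ± 0.11 SE, adjusted p = 0.0102). In Kntc1 and Zw10 replicate 3 was not the lowest itaconate library.

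In the spindle checkpoint 4 of 6 genes rose. Bub1b (chr2:118598211-118641591), which encodes BUBR1 of the mitotic checkpoint complex, had 4785, 4280.5 and 3299.8 in the itaconate libraries, against 2062, 1759 and 1734 in the NaCl libraries (log2 fold change 1.14 ± 0.13 SE, adjusted p = 3.59e-05). Mad2l1 (chr6:66535390-66547220) encodes MAD2, which captures the anaphase activator CDC20, and had 2313, 2358 and 2062 in the itaconate libraries, against 1399, 1259 and 1145 in the NaCl libraries (log2 fold change 0.83 ± 0.103 SE, adjusted p = 7.76e-05). Bub1 (chr2:127801122-127831865), a kinase that docks checkpoint proteins at KNL1, had 2334, 2120.4 and 1481 in the itaconate libraries, against 1205, 1078 and 1032 in the NaCl libraries (log2 fold change 0.82 ± 0.15 SE, adjusted p = 0.00103). The groups did not overlap in any of the 3. Ttk, which encodes MPS1, the kinase that starts checkpoint signalling, rose by 0.41 ± 0.13 on the log2 scale (adjusted p = 0.0245 in limma), a call lost without itaconate replicate 1 or 2 (0.102 and 0.081), without NaCl replicate 2 or 3 (0.0796 and 0.0708) and without the intensity trend (0.0648).

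Bub3 and Mad1l1 did not pass. Bub3 encodes the adaptor that carries BUB1 and BUBR1, and it had 2895, 2585 and 2018 with itaconate and 2203, 2016 and 2192 with NaCl (log2 fold change 0.21, 95% interval −0.05 to 0.47, adjusted p = 0.195), with itaconate replicate 3 among the controls. Without that library it passed (adjusted p = 0.0129, within 0.0129 to 0.575 over the alternatives). Mad1l1 encodes MAD1, which anchors MAD2 at the kinetochore, and had 419.9, 296 and 313 with itaconate and 264, 269 and 223 with NaCl, higher in every itaconate library (log2 fold change 0.43, 95% interval 0.06 to 0.801, adjusted p = 0.0674). It passed in 2 of 16 alternatives, one of them quantile normalization (adjusted p = 0.0494, within 0.0395 to 0.262 over the alternatives). Cenpj, despite its name, encodes a protein of the centriole and not of the kinetochore. It had 786, 655 and 784 with itaconate and 648, 670 and 613 with NaCl, with 1 itaconate library among the controls (log2 fold change 0.201, 95% interval −0.05 to 0.46, adjusted p = 0.205).

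**Figure D3:**
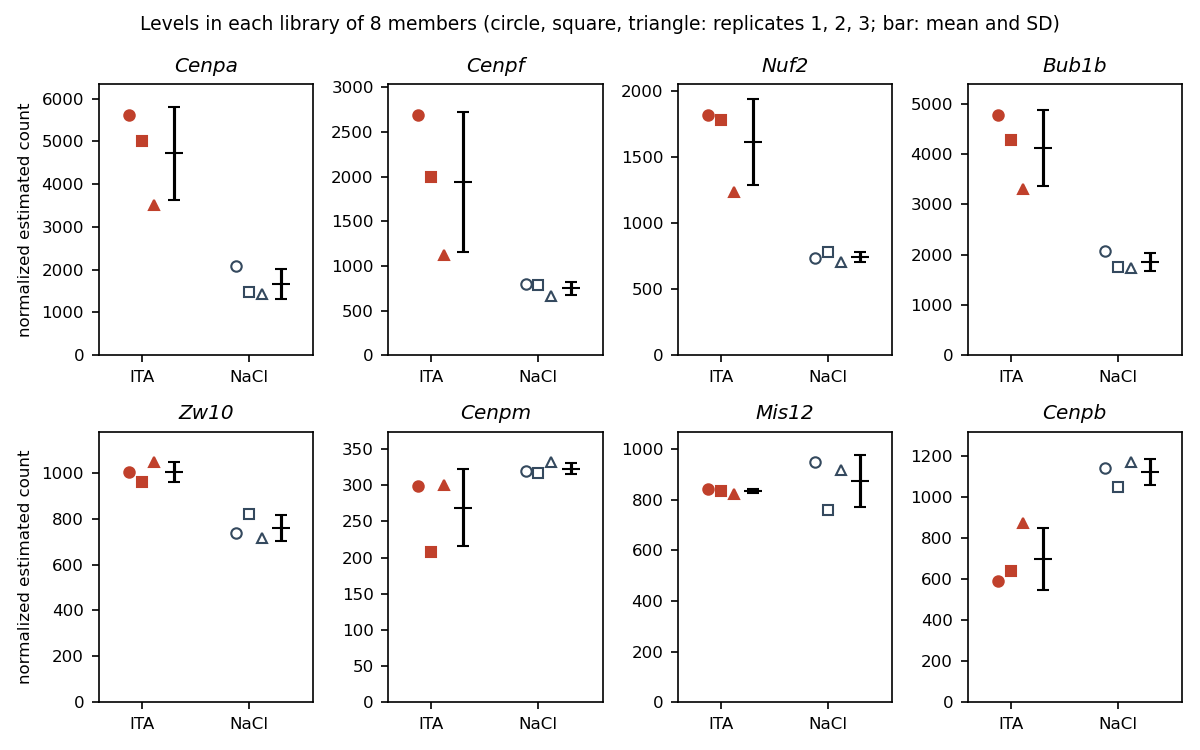
Normalized estimated count in each library of 8 members, with itaconate left of NaCl, points for the replicates and a bar for the mean and SD (n = 3). Cenpa, Cenpf, Nuf2, Bub1b and Zw10 are above the controls in each itaconate library, Cenpm and Cenpb below, and Mis12 within the controls' range. Among the itaconate libraries Cenpf ranges from 1125 to 2694 and Cenpm from 207 to 299.7.

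The itaconate libraries differed among themselves. Relative to the NaCl mean, the median log2 difference of the 41 genes was 0.51, 0.47 and 0.32 in itaconate replicates 1, 2 and 3, while that of all tested genes was 0.0087, 0.0037 and 0.002. Replicate 3 was also the lowest in each layer. It had 0.53 for the corona, against 0.97 and 0.91 in replicates 1 and 2, and 0.37 for the checkpoint, against 0.81 and 0.67. For the outer kinetochore it had 0.29, against 0.57 and 0.51, and for the inner kinetochore 0.16, against 0.31 and 0.39. Of the 41 genes, 28 were lowest in replicate 3, 9 in replicate 2 and 4 in replicate 1, where 36.1%, 28.4% and 35.5% of all tested genes were. The spread was widest for Cenpf, whose itaconate libraries stood 1.85, 1.42 and 0.59 above the NaCl mean on the log2 scale, and for Cenpe, with 1.48, 1.19 and 0.53. Mad2l1 kept close values, with 0.87, 0.90 and 0.71. The NaCl libraries 1, 2 and 3 also differed, with 0.32, 0.11 and −0.43 for Cenpe and 0.09, 0.08 and −0.18 for Cenpf. In both genes replicate 3 was the lowest of either group, whereas for Cenpo NaCl replicate 3 was the highest control (0.10). The order of the NaCl libraries was not counted over the 41 genes. Without replicate 3, 26 of the 41 genes rose and the median log2 fold change was 0.49. Replicate 3 had the lowest medians, so a higher median follows from leaving it out. Without replicate 1, 22 genes rose, and without replicate 2, 18 rose.

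**Figure D4:**
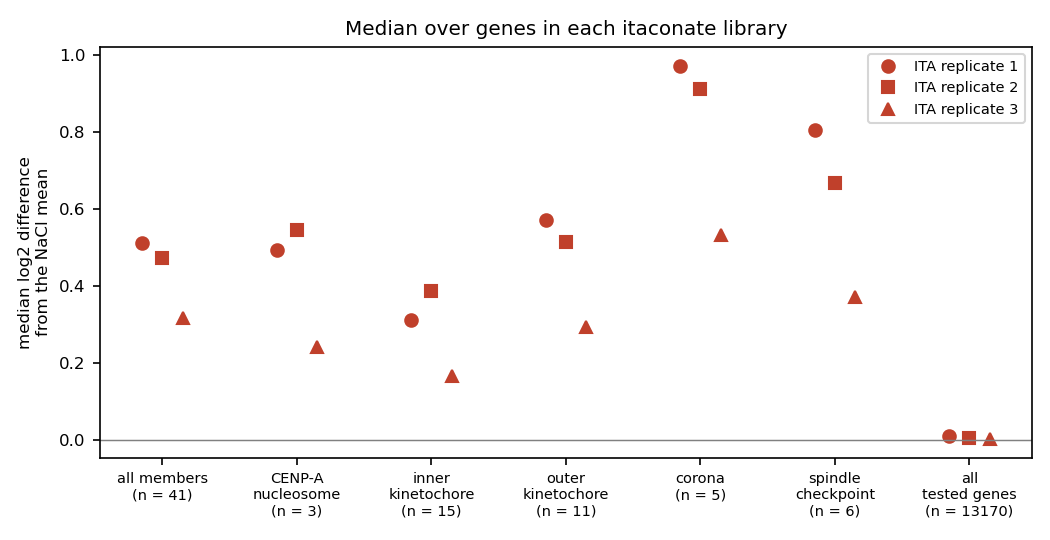
Median over genes of the log2 difference from the mean of the 3 NaCl libraries, in each itaconate library, for all 41 members, for each layer and for all tested genes. Replicate 3 (triangles) lies lowest in each layer, at 0.53 for the corona and 0.37 for the checkpoint, and all 3 libraries lie near 0 over all tested genes.

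Because several of these proteins work in fixed complexes, the ratio of the counts of partner genes was set out in each library for 10 pairs, which were chosen with the values known and are described without a test. A ratio of counts depends on the lengths of both transcripts, so only its difference between libraries is informative. The ratio of Bub1b to Bub3 was 1.65, 1.66 and 1.64 in the itaconate libraries, against 0.936, 0.872 and 0.791 in the NaCl libraries. It was nearly the same in the 3 itaconate libraries although both counts differed among them. The ratio of Cenpa to Hjurp was 0.65, 0.558 and 0.484 in the itaconate libraries, against 0.33, 0.235 and 0.245 in the NaCl libraries. That of Nsl1 to Mis12 was 1.33, 1.27 and 1.12 in the itaconate libraries, against 0.746, 0.813 and 0.661 in the NaCl libraries. In these pairs the groups lay apart. The ratio of Nuf2 to Ndc80 was 1.19, 1.06 and 0.957 in the itaconate libraries, against 0.572, 0.86 and 0.76 in the NaCl libraries, and that of Ska3 to Ska1 was 1.77, 2.47 and 1.63 in the itaconate libraries, against 1.1, 1.27 and 1.34 in the NaCl libraries. The ratio of Mad2l1 to Mad1l1 was 5.51, 7.95 and 6.59 in the itaconate libraries, against 5.3, 4.68 and 5.13 in the NaCl libraries, apart by a narrow margin. The ratios with Mis12 and Ska3 are less certain, since both genes share exonic bases with expressed genes on the opposite strand. In the other 4 pairs (Cenpt to Cenpw, Cenpx to Cenps, Spc25 to Spc24 and Zwilch to Zw10) the groups overlapped. Of single genes, 48.4% of those tested had groups that did not overlap, and no such share was computed for ratios, so nothing is read from the number of pairs that lay apart.

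**Figure D5:**
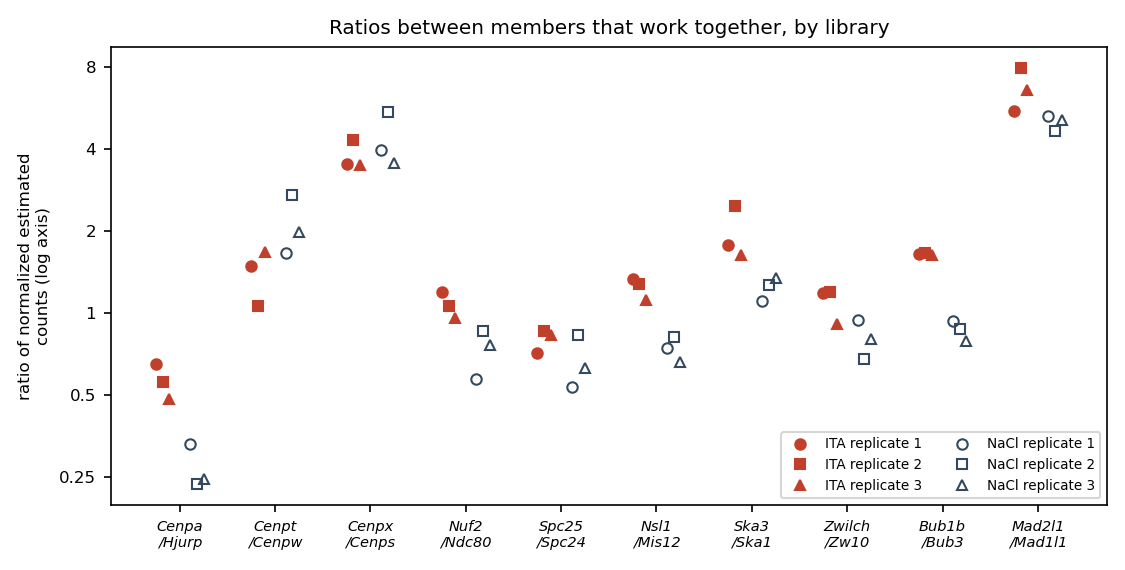
Ratio of normalized estimated counts of 2 members in each library, on a log axis, with itaconate (filled) left of NaCl (open). In Bub1b to Bub3 the itaconate libraries lie between 1.64 and 1.66 and the NaCl libraries between 0.791 and 0.936.

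Levels between subunits were compared per kb of the union of annotated exons, which makes a gene with long rare isoforms look low. For the Ndc80 complex, whose 4 subunits are present in equal number, Spc24 had 305 ± 44 counts per kb with itaconate and 249 ± 38.5 with NaCl, and Nuf2 had 255 ± 51.9 and 117 ± 5.93. Ndc80 had 231 ± 30.4 with itaconate and 160 ± 32.6 with NaCl, and Spc25 had 196 ± 15.9 and 130 ± 8.79 (SD, n = 3 each). Spc24 was the highest per kb in both groups, and Nuf2 stood second with itaconate and last with NaCl. This order depends on the exon lengths used, 2573 bases for Spc24, 3188 for Spc25, 6341 for Nuf2 and 6493 for Ndc80. It is no measure of the number of protein subunits. With itaconate, Nuf2 and Ndc80 differed by less than either SD.

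The wider pathway was described in the same way. Of 29 further centromere and kinetochore genes, 19 rose, 1 fell and 9 did not pass (median log2 fold change 0.56). Among all tested genes 18.2% rose and 17.8% fell. Birc5 rose by 1.098 ± 0.11, Aurkb by 1.002 ± 0.105 and Spag5 by 1.10 ± 0.12 on the log2 scale (adjusted p = 1.30e-05, 2.25e-05 and 2.44e-05 in limma). Birc5 encodes survivin, a partner of Aurora B in the chromosomal passenger complex, and Spag5 encodes astrin, which stabilises attachments. Aurkb encodes Aurora B itself, the kinase that corrects faulty attachments, and its counts were 3728, 3399.7 and 2921 in the itaconate libraries, against 1641, 1561 and 1798 in the NaCl libraries. The gene that fell, Itgb3bp, encodes CENP-R, a further partner of CENP-O. Its counts were 72.2, 78.5 and 93.4 in the itaconate libraries, against 108, 154 and 133 in the NaCl libraries (log2 fold change −0.68 ± 0.23 SE, adjusted p = 0.0375), a call lost without itaconate replicate 1 or 2 (0.0997 and 0.0917) and without NaCl replicate 2 or 3 (0.143 and 0.0987). A list of 24 genes held subunits of the anaphase-promoting complex, the target of the checkpoint, its activators, partner enzymes, substrates and inhibitors, and separase. Of these 24 genes, 12 rose, 2 fell and 10 did not pass (median 0.28), next to the same 18.2% and 17.8% of all tested genes. The parts of this list were not counted apart. Espl1, the separase that cuts cohesin at anaphase, had 3233, 2853 and 2411 in the itaconate libraries, against 1165, 1216 and 1328 in the NaCl libraries (log2 fold change 1.19 ± 0.11 SE, adjusted p = 1.14e-05). The cyclin gene Ccna2 rose by 1.21 ± 0.14 and Fbxo5, an inhibitor of the complex, by 0.64 ± 0.102 (adjusted p = 5.53e-05 and 4.31e-04). The subunit genes Anapc16 and Anapc11 fell by small amounts, with log2 fold changes of −0.37 ± 0.13 and −0.32 ± 0.12 (adjusted p = 0.0348 and 0.0469). Without itaconate replicate 1 neither passed (0.0587 and 0.116), and both calls were also lost without 1 or more of the other libraries, with adjusted p up to 0.146 for Anapc16 and 0.167 for Anapc11.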

How the data were processed

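RNA of 6 libraries, 3 per treatment, was sequenced. Normalized estimated counts, an expression signal, were deposited by the authors with 1 row per gene entry. Per the submitters' processing notes, STAR (2.7.0f), RSEM (1.3.0) and the build mm10 were involved. The sources used here do not give the annotation, strand setting, scaling tool or filters. Values stood in hundredths of a library-specific step, from which the estimated reads were computed. Between 79.9% and 82.2% of values above 0 were whole reads within 0.02 reads, so no count model was used. The chi-square per degree of freedom between replicates was 12.5 to 25.3, above sampling noise. Where a symbol had several entries (107 symbols), the one with the highest mean was used. Genes with a mean of at least 10 were fitted by limma (3.58.1, R 4.3.3) on log2(value + 1). The fit had an intensity trend in the variance, and p-values were two-sided and adjusted over 13170 genes. Fold changes on this scale understate those of low genes. The fit was tested on simulated data. Members, lists, partner pairs and promoter motifs were chosen with earlier results of these data known. Every member is named. Values in each library are given for the 3 smallest p per layer, for falls and for genes that did not pass. Of the other 2 pathway lists, the 3 smallest p and the falls are named. Positions and exon lengths are from GENCODE M21 (GRCm38). Alternatives were pseudocounts, filters, scalings (median-ratio, TMM, quantile), variance settings, a replicate block and each library left out.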

Additional observations from a re-analysis of the deposited data

How the results depend on the processing

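Of the 41 genes, 32 kept their call in each of 16 alternatives, among them 18 that rose and the fall of Cenpb. Cenph, Cenpw, Ndc80, Pmf1, Ska2 and Ttk lost it in some, and Cenpn, Bub3 and Mad1l1 gained it in some. The count that rose was 18 to 26 with 1 library left out, 19 without the intensity trend and 24 to 26 in the other alternatives. The outer kinetochore count was 4 without the intensity trend and 4 to 7 with 1 library left out. In the further centromere list 0 fell without a filter or after quantile normalization, and 0 to 1 with 1 library left out. In the anaphase-promoting complex list 1 fell without a filter, 0 without the intensity trend, and 0 to 1 with 1 library left out. The replicate numbers correlated at 0.147, 0.0381 and 0.13 between groups, highest with their own number for each library, but the labels do not tie them to a mouse or day. With the number as a replicate block 26 members rose, the 24 and also Cenpn (adjusted p = 0.0406) and Mad1l1 (0.0395). The causes of these differences were not tested. Low genes such as Cenps had wide intervals (log2 fold change −0.53 to 0.53), and the part of the estimated reads per library in that was not tested either.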
